A study of Mus musculus with 16 samples.

Results

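Gene expression in the suprarenal aorta of saline-infused Vamp8-/- knockout mice (KO saline, 4 libraries) was set against that of saline-infused C57BL/6 wild-type mice (WT saline, 4 libraries). The comparison was taken from the sample titles and used 8 of the 16 libraries of the series. Every gene of the count table was eligible, and 15984 of 29695 had enough reads to be tested. All mice were male and carried a subcutaneous osmotic minipump for 5 days. It delivered saline in these 8 mice, and angiotensin II (AngII) at 1000 ng/kg/min in the 4 KO AngII and 4 WT AngII mice whose libraries are used beside them. The vessel was flushed with saline, the tissue around it was removed, and aortae with bleeding into the wall or other overt pathology had been left out by the submitters. The labels do not give the strain background of the knockout line or say whether the wild-type mice were littermates. A difference in background between the groups therefore cannot be told apart from loss of Vamp8. The whole vessel segment was sequenced, so that fewer cells of a type and less RNA per cell cannot be told apart.

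At a Benjamini-Hochberg adjusted p under 0.05 in edgeR's quasi-likelihood test, 481 genes (3.01% of those tested) differed, 197 higher (1.23%) and 284 lower (1.78%) in KO saline. Matrix genes of the vessel wall were among the lower ones, with 10 of 21 collagens, elastin and fibrillin 1. So were 6 of 22 genes of the unfolded protein response, the folding factors of the endoplasmic reticulum. Of 19 circadian clock genes, 6 were higher and 4 were lower. Several immune loci, such as Gbp2b and Ifi202b, were read in KO saline and hardly or not at all in WT saline, and the Trim5 to Trim30 cluster held genes with the opposite pattern. Fusion machinery, autophagy and interferon-stimulated genes held no called member, in lists short enough to hold few at the share over all genes.

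VAMP8 is an R-SNARE, a small membrane-anchored protein of vesicles that zips together with syntaxins and SNAP proteins on the target membrane and so drives fusion. It acts in the fusion of late endosomes and of autophagosomes with lysosomes, and in granule release by platelets, mast cells and exocrine glands. The aortic wall is built of smooth muscle, endothelium and fibroblasts, which secrete collagens and elastin through the endoplasmic reticulum and Golgi.

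Vamp8 (ENSMUSG00000050732, chromosome 6) was read first. Its level was 53.3, 31.4, 26.3 and 24.9 CPM (read counts scaled to library size, here with TMM normalisation) in KO saline replicates 1 to 4, against 45.9, 51.9, 57.2 and 52.5 CPM in WT saline. The library labelled KO saline replicate 1 thus lay inside the WT saline range, while the other KO saline libraries lay below it. Without TMM scaling the groups did not overlap, with plain CPM over all reads of 38.2, 27.8, 25.1 and 22.5 in KO saline against 51.0, 51.7, 60.5 and 61.6 in WT saline. The mean was 33.99 ± 13.2 CPM in KO saline and 51.9 ± 4.64 CPM in WT saline (SD, n = 4 each), a log2 fold change of -0.61 (SE 0.23) that did not pass (adjusted p = 0.147). Without the library labelled KO saline replicate 1 it was -0.95 and passed (adjusted p = 0.0315). Under AngII Vamp8 averaged 22.9 ± 5.90 CPM in KO AngII and 55.8 ± 3.67 CPM in WT AngII. That difference was called in the same fit (log2 fold change -1.29, SE 0.23, adjusted p = 0.00981). The change between the infusions was not called (adjusted p = 0.444). The labels do not say which part of the gene the knockout allele lacks, so reads from the rest of the gene say nothing of the allele.

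**Figure D1:**
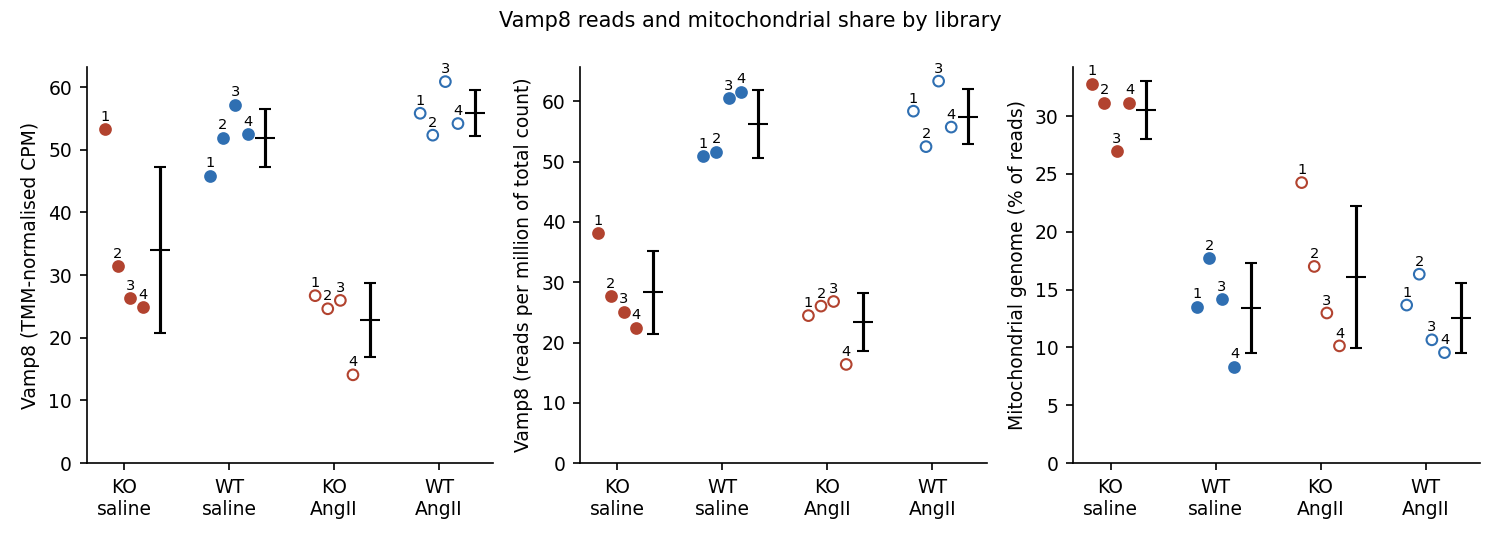
Vamp8 in TMM-normalised CPM (left), Vamp8 in plain CPM over all reads (middle) and the percentage of reads from the mitochondrial genome (right), by library, with numbers giving the replicate and bars the mean and SD of 4 libraries. The library labelled KO saline replicate 1 stands at 53.3 CPM among the WT saline libraries on the left axis, and below all of them, at 38.2, in the middle; the mitochondrial share of each KO saline library is above that of each WT saline library.

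Libraries held 13284804 to 21643548 reads, the largest being the library labelled KO saline replicate 1, and totals did not differ detectably between KO saline and WT saline (exact two-sided permutation p = 0.486, where 4 against 4 allow 0.0286 at the smallest). Mitochondrial transcripts took 32.8, 31.2, 27.0 and 31.2% of reads in KO saline and 13.5, 17.7, 14.2 and 8.33% in WT saline. WT saline replicate 2 stood apart in its tissue makeup. Its 18 smooth muscle markers summed to 13703 CPM, against 34753.5 to 36854.5 CPM in the other WT saline libraries and 15220.4 to 22200.5 CPM in KO saline. Its 16 general adipocyte markers summed to 27630 CPM, against 5422 to 16522 CPM in the other WT saline libraries and 13649 to 29470.4 CPM in KO saline. KO saline replicate 3 held 923 CPM of skeletal muscle markers against 42.7 to 63.9 CPM in the rest of its group. The count table itself differed by genotype: the 2725 genes that had no symbol in it were exactly the 2725 with 0 reads in all 8 WT libraries, while all 1401 genes with 0 reads in all 8 KO libraries had one. The labels do not say whether the libraries of each genotype were counted or annotated apart, and such a step cannot be told apart from genotype.

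With the mitochondrially encoded genes left out of the fit, 185 genes were higher and 414 lower, so that 30.9% of the calls were higher against 41.0% with them. Single libraries moved the number of calls. Leaving out WT saline replicate 2 gave 1744 called genes, and leaving out WT saline replicates 1, 3 and 4 in turn gave 105, 127 and 120. The number was 197, 163, 191 and 201 without KO saline replicates 1 to 4, 304 with WT AngII replicate 1 left out and 857 with KO AngII replicate 4 left out. A core of 93 genes, 50 higher and 43 lower in KO saline, was called in all 16 fits that each left out 1 library. Of the 481, 399 were protein-coding, 131 higher and 268 lower. Pseudogenes made up 49 of the 481, 43 higher and 6 lower, which was 6.77% of the pseudogenes tested, against 2.87% of the protein-coding genes tested. In 417 of the 481 the 4 KO saline libraries did not overlap the 4 WT saline libraries, a pattern seen in 1776 (11.1%) of all genes tested.

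**Figure D2:**
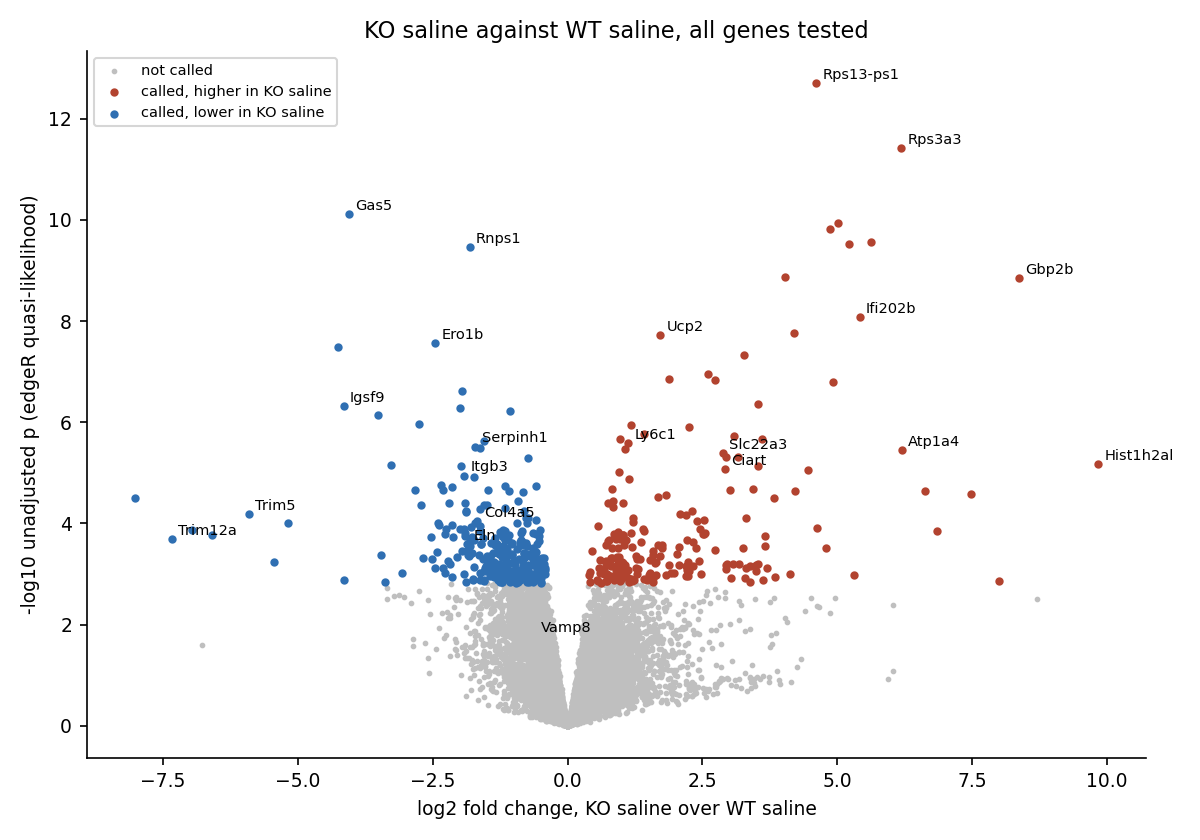
Each point is 1 of 15984 genes tested, with the log2 fold change of KO saline over WT saline on the x axis and −log10 of the unadjusted p on the y axis; red points were called higher and blue points lower in KO saline. Hist1h2al, Gbp2b and Ifi202b lie far to the right, Trim12a and Trim5 far to the left, and Vamp8 lies among the grey points that were not called.

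Some of the largest differences were close to presence against absence. The part of strain background in them was not tested. Gbp2b, a guanylate-binding protein of the interferon response, was at 25.6, 39.3, 45.3 and 41.0 CPM in KO saline, against 0.339, 0, 0.059 and 0.0512 CPM in WT saline. Only 7 reads in all came from WT saline, against 2169 from KO saline, a log2 fold change of 8.37 (SE 0.65, adjusted p = 2.22e-06). Ifi202b, a DNA sensor of the Ifi200 family, was at 5.62, 6.45, 4.92 and 7.86 CPM in KO saline against 0.203, 0.196, 0.118 and 0.0512 CPM in WT saline (log2 fold change 5.42, SE 0.48, adjusted p = 1.21e-05). In both genes every KO saline library was many times above every WT saline library, and both were called in all 16 fits that left out 1 library. Both belong to the 12 largest rises, for which no overlap between the groups was a condition. Atp1a4, a catalytic subunit of the sodium pump known from sperm, had 162 reads in KO saline and 2 in WT saline, a ratio of 93.4 after scaling (95% exact binomial interval 25.4 to 777, counting error only). Hist1h2al (listed as a processed pseudogene) had 407 reads in KO saline and 0 in WT saline, at least 156-fold higher against a floor of 3 reads over the group, and 0 reads in all 8 AngII libraries.

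Outside the 12 largest rises, 3 called genes of membrane transporters or channels are described here. They are a selection, and further such genes were called in both directions, among them Kcnj14 (log2 fold change 2.46) and Slc38a1 (-1.98). Slc22a3, an organic cation transporter that clears monoamines, was at 124, 165, 205 and 234 CPM in KO saline, against 13.5, 43.3, 31.1 and 11.2 CPM in WT saline (log2 fold change 2.88, SE 0.41, adjusted p = 0.00163). Ucp2, a carrier of the inner mitochondrial membrane, was at 164, 168, 154 and 142 CPM in KO saline, against 39.9, 60.4, 41.3 and 49.8 CPM in WT saline (log2 fold change 1.71, SE 0.16, adjusted p = 2.33e-05). Aqp11, an aquaporin of intracellular membranes, averaged 19.2 ± 4.75 CPM in KO saline and 2.13 ± 0.400 CPM in WT saline (SD, n = 4 each; adjusted p = 0.00186). Slc22a3, Ucp2 and Aqp11 were named after their values were seen, their groups did not overlap, and they were called in all 16 fits that left out 1 library.

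Adcy1, an adenylyl cyclase of neurons, averaged 39.97 ± 13.04 CPM in KO saline and 3.16 ± 1.60 CPM in WT saline (adjusted p = 0.0239). Glrb, a glycine receptor subunit, averaged 4.30 ± 0.490 CPM in KO saline and 0.467 ± 0.084 CPM in WT saline (adjusted p = 0.035). Adcy1 and Glrb each lost the call without any one of WT saline replicates 1, 3 and 4 or KO saline replicates 2 to 4, at adjusted p up to 0.088 and 0.115. The library labelled KO saline replicate 1 decided the call of Glrb too. Markers of sympathetic neurons and chromaffin cells summed to 64.1, 275, 154 and 68.7 CPM in KO saline, against 97.5, 30.2, 49.2 and 63.1 CPM in WT saline, and 0 of the 14 tested were called; their part in these differences was not tested. Golga7b, which takes part in protein palmitoylation, Ctse, an aspartic protease, Rdh16, a retinol dehydrogenase, Pik3c2g, a lipid kinase, Trim34b and the olfactory receptor Olfr482 were also among the 12 largest rises. Olfr482 averaged 3.59 ± 1.11 CPM in KO saline and 0.366 ± 0.088 CPM in WT saline, with log2 fold changes over the 6 genes of 3.27 to 5.31. Trim34b and Olfr482 were called in all 16 fits, but Golga7b, Ctse, Rdh16 and Pik3c2g in 4, 7, 5 and 11. Each of these 4 lost the call without WT saline replicates 1, 3 or 4 or KO saline replicates 1 or 4. Golga7b, Ctse and Rdh16 also lost it without KO saline replicates 2 or 3 and without single AngII libraries (WT AngII replicates 1 to 4 and KO AngII replicate 1 for Golga7b, WT AngII replicates 1 and 3 for Ctse, WT AngII replicates 2 and 3 and KO AngII replicates 2 and 3 for Rdh16).

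The 12 largest falls held genes of adhesion, cell junctions, protein folding and the clock (Nfil3), besides Trim12a, Trim30d and Trim5. Igsf9, an immunoglobulin superfamily adhesion protein, was at 1.29, 2.07, 3.30 and 3.46 CPM in KO saline, against 55.5, 19.1, 42.6 and 63.0 CPM in WT saline (log2 fold change -4.15, SE 0.50, adjusted p = 0.000329). Ero1b, an oxidase that makes disulfide bonds in the endoplasmic reticulum, was at 2.45, 2.38, 0.984 and 2.06 CPM in KO saline, against 11.1, 9.53, 11.5 and 11.01 CPM in WT saline (log2 fold change -2.45, SE 0.23, adjusted p = 3.06e-05). Gm15446, which has no described role here, averaged 0.262 ± 0.117 CPM in KO saline and 5.10 ± 0.609 CPM in WT saline (adjusted p = 3.41e-05). These 3 genes were called in all 16 fits that left out 1 library. Their groups did not overlap, which was a condition for the 12 largest falls.

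Dsp, the desmosome protein desmoplakin, was at 32.6, 20.2, 19.5 and 12.4 CPM in KO saline, against 127, 41.0, 102 and 221 CPM in WT saline (log2 fold change -2.53, SE 0.51, adjusted p = 0.0199). Its call was lost without WT saline replicates 1 or 4 or KO saline replicates 2, 3 or 4, at adjusted p up to 0.0717. Cilp2, a cartilage matrix protein, averaged 0.869 ± 0.417 CPM in KO saline and 6.17 ± 2.99 CPM in WT saline (adjusted p = 0.00562). Tceal6, Vtcn1, an inhibitory ligand of T cells, and Kctd16, a partner of GABA-B receptors, had log2 fold changes of -2.72, -2.67 and -2.46, and in each of these genes WT saline replicate 2 was the lowest library of its group. Vtcn1 and Kctd16 were called in 10 and 8 of the 16 fits, and both lost the call without WT saline replicates 1, 3 or 4 or KO saline replicates 2 to 4. Kctd16 also lost it without KO saline replicate 1 or WT AngII replicate 1.

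Part of the largest differences fell on genes with near-identical copies elsewhere in the genome, and these are uncertain one by one, because the labels do not say how reads matching several places were counted. Ribosomal protein genes and their processed copies show how small the sequence differences are. Below are 60 coding bases of Rps3a1 (chromosome 3) and its copies Rps3a3 (chromosome 13) and Rps3a2 (chromosome 14), with capitals for bases that differ from Rps3a1, then the same for Rpl34 (chromosome 3) and Rpl34-ps1 (chromosome 6). They are read from the GRCm38 transcripts, at coding bases 201 to 260 and 73 to 132.
Rps3a1: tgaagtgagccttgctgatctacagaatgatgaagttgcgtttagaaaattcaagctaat
Rps3a3: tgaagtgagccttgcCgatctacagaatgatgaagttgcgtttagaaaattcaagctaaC
Rps3a2: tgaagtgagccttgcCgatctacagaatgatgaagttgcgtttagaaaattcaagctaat
Rpl34: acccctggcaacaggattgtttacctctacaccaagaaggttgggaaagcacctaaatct
Rpl34-ps1: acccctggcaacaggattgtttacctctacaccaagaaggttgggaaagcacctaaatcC
Over the whole coding region Rps3a3 differs from Rps3a1 at 9 of 795 bases, Rps3a2 at 4 of 792, and Rpl34-ps1 from Rpl34 at 2 of 354.

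Rps3a3 was at 180, 226, 109 and 110 CPM in KO saline, against 1.90, 1.83, 2.24 and 2.56 CPM in WT saline (log2 fold change 6.18, SE 0.31, adjusted p = 3.01e-08). Its parent Rps3a1, a protein of the small ribosomal subunit, was at 444, 119, 359 and 390 CPM in KO saline, against 706, 524, 722 and 742 CPM in WT saline (log2 fold change -1.04, SE 0.29, adjusted p = 0.0628), and was called without WT saline replicate 2 or KO saline replicate 2. KO saline replicate 2 was the highest library for Rps3a3 and the lowest for Rps3a1. Summed over Rps3a1, Rps3a2 and Rps3a3 the level was 607 ± 64.8 CPM in KO saline and 680 ± 101 CPM in WT saline (SD, n = 4 each), and the libraries of the groups overlapped. Rpl34-ps1 was at 249, 178, 153 and 75.0 CPM in KO saline, against 10.4, 8.87, 11.8 and 8.76 CPM in WT saline (adjusted p = 2.22e-06). Rpl34 itself, of the large subunit, was at 4.65, 2.07, 2.88 and 72.1 CPM in KO saline, against 160, 123, 175 and 153 CPM in WT saline. It was not called (log2 fold change -2.90, SE 0.85, adjusted p = 0.0735), but was called without WT saline replicate 2 or KO saline replicate 4, at adjusted p down to 1.46e-06. Parent and copy together came to 184 ± 48.2 CPM in KO saline and 163 ± 23.2 CPM in WT saline.

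The same split was seen beyond ribosomal genes. Rnps1, a splicing regulator of the exon junction, was at 8.20, 11.3, 10.8 and 10.99 CPM in KO saline, against 36.9, 36.2, 37.6 and 34.004 CPM in WT saline (log2 fold change -1.81, SE 0.13, adjusted p = 6.98e-07). With its copy Rnps1-ps added, the sum was 25.04 ± 3.90 CPM in KO saline and 36.6 ± 1.15 CPM in WT saline, and these sums still did not overlap. Of the called genes whose symbols end in -ps or -rs, 22 in all, 18 were higher and 4 were lower. Apart from Dynlt1-ps1 and Tmem181b-ps they belong to 17 families with a tested parent. The ferritin light chain family had sums that did not overlap, at 351 ± 64.4 CPM in KO saline and 180 ± 43.6 CPM in WT saline, and both Ftl1, the iron storage gene, and Ftl1-ps1 were called. Sums also lay apart for the families of Glo1, Rps13 and Rpsa, with ratios of KO saline over WT saline of 1.72, 1.27 and 1.31. For the Mid1 family the sums lay apart at a ratio of 0.44. Family sums were not tested. Gas5, a small nucleolar RNA host gene of chromosome 1, was at 2.97, 2.07, 1.55 and 2.40 CPM in KO saline, against 36.3, 25.9, 45.8 and 42.2 CPM in WT saline (log2 fold change -4.06, SE 0.25, adjusted p = 4.12e-07). It was the only called member of 15 small nucleolar RNA host genes, whose median log2 fold change was 0.40.

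**Figure D3:**
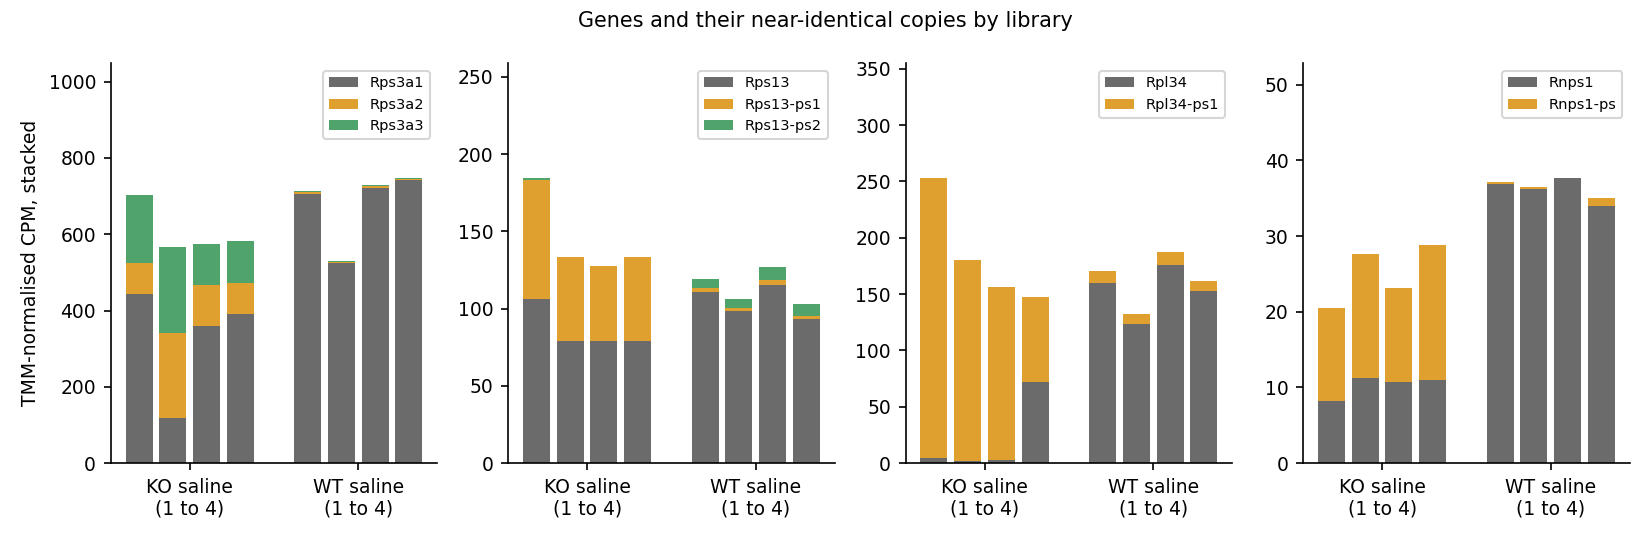
Stacked bars of TMM-normalised CPM for a parent gene (grey) and its copies (orange, green) in each library, KO saline replicates 1 to 4 left of WT saline replicates 1 to 4. In WT saline nearly the whole bar is the parent, while in KO saline Rps3a2, Rps3a3, Rps13-ps1, Rpl34-ps1 and Rnps1-ps take large parts of it; the whole bars of Rps3a1 and Rpl34 overlap between the groups.

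Innate immune loci changed gene by gene, in both directions. The Ifi200 genes are cytosolic or nuclear DNA sensors of chromosome 1, and the Trim5, Trim12, Trim30 and Trim34 genes of chromosome 7 encode antiviral ubiquitin ligases; both clusters are made of close copies. Of 19 tested, 4 were higher (Ifi202b, Trim34b, Trim12c, Ifi203) and 5 were lower (Trim5, Ifi213, Trim30d, Trim12a, Trim34a). The shares over all genes tested were 1.23% higher and 1.78% lower. Trim12a was at 0, 0, 0 and 0.400 CPM in KO saline, against 18.8, 16.2, 18.7 and 17.8 CPM in WT saline, with 6 against 1191 reads (log2 fold change -7.33, SE 1.51, adjusted p = 0.0212). Trim5 was at 0.129, 0, 0 and 0.200 CPM in KO saline, against 6.91, 4.96, 4.72 and 5.84 CPM in WT saline (log2 fold change -5.91, SE 1.08, adjusted p = 0.0116). Trim12c, a close relative, was at 31.5, 38.3, 40.8 and 48.3 CPM in KO saline, against 23.7, 21.8, 22.9 and 20.9 CPM in WT saline (adjusted p = 0.00562). In all 3 genes the groups lay apart, Trim12a and Trim5 nearly absent and Trim12c elevated in KO saline. For Trim12a and Trim5, which are among the largest falls, no overlap was a condition of being named.

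Trim30d had 3 reads in KO saline and 382 in WT saline, and the ratio of WT saline over KO saline was 110 (95% exact binomial interval 37.5 to 538, counting error only). Ifi213 had 0 reads in KO saline and 64 in WT saline and was at least 18.5-fold lower. Fits that left out 1 library called 5 to 10 of the 19. Trim12a lost its call without WT saline replicates 1, 3 or 4 or any one KO saline library, at adjusted p up to 0.0629. Trim30d lost it without WT saline replicates 1 or 3 or KO saline replicates 1, 2 or 4, at adjusted p up to 0.0604, and Trim5 kept it throughout.

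Calls among other interferon and antigen presentation genes are set beside the 3.01% called over all genes tested. None of 31 interferon-stimulated genes was called, at a median log2 fold change of 0.13, against 0.05 over all genes tested. Among 15 guanylate-binding proteins and other immune GTPases Gbp2b alone was called, although all 15 had positive log2 fold changes (median 0.60). Of 20 genes of MHC class I presentation, 19 had positive log2 fold changes (median 0.68) and 2 were called. B2m, the invariant light chain of class I molecules, was at 938, 942, 986 and 596 CPM in KO saline, against 433, 639, 559 and 445 CPM in WT saline (log2 fold change 0.74, SE 0.19, adjusted p = 0.0474), with KO saline replicate 4 inside the WT saline range. H2-T10 averaged 6.58 ± 2.00 CPM in KO saline and 2.20 ± 0.886 CPM in WT saline (adjusted p = 0.0487). The class I count was 12 without WT saline replicate 2, 1 without KO saline replicate 4 and 0 without any other saline library. It was 5 without KO AngII replicate 4 and 0 or 1 without any other AngII library. With DESeq2, which called 1362 of all genes, the class I count was 10, and with limma voom, which called 3197, it was 16.

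Ly6c1 and Ly6a, surface proteins of endothelium, stem-like cells and monocytes, were the 2 called members of 8 Ly6 genes, against 3.01% of all genes tested. Ly6c1 was at 282, 233, 227 and 251 CPM in KO saline, against 118, 133, 117 and 87.3 CPM in WT saline (log2 fold change 1.13, SE 0.15, adjusted p = 0.00117), and was called in all 16 fits that left out 1 library. Ly6a was at 261, 254, 204 and 318 CPM in KO saline, against 159, 194, 152 and 144 CPM in WT saline (log2 fold change 0.68, SE 0.16, adjusted p = 0.0387). It lost its call in 8 of those 16 fits, without WT saline replicates 1, 3 or 4, WT AngII replicate 4, KO saline replicates 1, 2 or 4 or KO AngII replicate 2, at adjusted p up to 0.133. In both genes every KO saline library was above every WT saline library. Fcgr3, an activating Fc receptor of macrophages, fell: it was at 4.52, 3.92, 3.86 and 3.86 CPM in KO saline, against 9.49, 18.8, 10.7 and 16.8 CPM in WT saline (log2 fold change -1.79, SE 0.35, adjusted p = 0.0171), and it was the 1 called member of 19 macrophage markers. Without WT saline replicate 4 or KO saline replicate 2 it was not called (adjusted p = 0.0527 at the highest).

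Part of the extracellular matrix genes were lower in KO saline. Of 21 collagens, 10 were lower and none higher, with a median log2 fold change of -1.18 over all 21, against 0.05 over all genes tested. Of 21 elastic fibre and crosslinking genes 2 were lower (median -0.77), and of 25 matricellular proteins and proteoglycans 5 were lower (median -0.67). The share called lower over all genes tested was 1.78%. Eln, the elastin that gives the aorta its recoil, was at 1231, 1876, 1436 and 1823 CPM in KO saline, against 8919, 2556, 5943 and 5653 CPM in WT saline (log2 fold change -1.86, SE 0.39, adjusted p = 0.0232). The groups did not overlap, but WT saline replicate 2 lay close to KO saline. Fbn1, the microfibril protein mutated in Marfan syndrome, was at 134, 195, 151 and 240 CPM in KO saline, against 500.2, 307, 429 and 697 CPM in WT saline (log2 fold change -1.43, SE 0.30, adjusted p = 0.0229).

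Among the 10 called collagens were chains of basement membranes (types IV, XV and XVIII), of the type VI network and of fibrils (Col5a1). Col4a5, a chain of type IV collagen, was at 91.2, 136, 96.6 and 112 CPM in KO saline, against 443, 171, 340 and 432 CPM in WT saline (log2 fold change -1.67, SE 0.32, adjusted p = 0.0147). Col15a1, which links basement membrane to the fibres beneath, was at 103, 178, 127 and 126 CPM in KO saline, against 380, 199, 351 and 338 CPM in WT saline (log2 fold change -1.25, SE 0.25, adjusted p = 0.0187). In each the lowest WT saline library was replicate 2, which still lay above every KO saline library. The other called members were Col4a1, Col4a2, Col4a6, Col5a1, Col6a1, Col6a2, Col6a3 and Col18a1, with log2 fold changes of -1.04 to -1.40. The fibrillar collagens Col1a1, Col1a2 and Col3a1 were not called. Col1a1 averaged 1288 ± 398 CPM in KO saline and 3324 ± 1168 CPM in WT saline (log2 fold change -1.37, SE 0.40, adjusted p = 0.0759).

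Among proteoglycans and matricellular proteins, Acan, the large aggregating proteoglycan aggrecan, was at 2.84, 2.84, 3.16 and 4.19 CPM in KO saline, against 14.5, 5.68, 17.5 and 31.6 CPM in WT saline (log2 fold change -2.41, SE 0.46, adjusted p = 0.0151). Vcan, its relative versican, was at 28.7, 34.9, 22.6 and 40.3 CPM in KO saline, against 87.6, 46.8, 78.2 and 110 CPM in WT saline (adjusted p = 0.0232). Sparc, which binds collagen and steers its assembly, averaged 2401 ± 510 CPM in KO saline and 5531 ± 1433 CPM in WT saline (adjusted p = 0.0247). Thbs3 and Tnc, the remaining called members, had log2 fold changes of -1.27 and -1.62. Each of these 5 genes was lower in every KO saline library than in any WT saline library. Among all 481 called genes 417 had no overlap between the groups, against 11.1% of all genes tested.

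The cells' matrix contacts and basement membrane partners were named after their values were seen. Itgb3, the beta chain of the vitronectin receptor, was at 34.1, 47.4, 47.3 and 47.6 CPM in KO saline, against 209.5, 72.8, 195 and 191 CPM in WT saline (log2 fold change -1.92, SE 0.30, adjusted p = 0.00356). Lamc3, a laminin gamma chain, averaged 11.8 ± 2.75 CPM in KO saline and 44.01 ± 14.997 CPM in WT saline (adjusted p = 0.00824). Npnt, an integrin ligand of basement membranes, averaged 293 ± 44.7 CPM in KO saline and 1115 ± 432 CPM in WT saline (adjusted p = 0.0181). Hspg2, the basement membrane proteoglycan perlecan, Lamc1 and Lama4 fell by 1.13, 0.71 and 0.55 on the log2 scale.

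Smooth muscle markers and transcript length moved with these genes, and their part in the result was not tested. None of 18 smooth muscle markers was called, though 10 were without WT saline replicate 2, 3 without KO AngII replicate 4, 4 with DESeq2 and 14 with limma voom. Their median log2 fold change was -0.69 and their sums were lower in KO saline than in 3 of the 4 WT saline libraries. Fibroblast markers summed to 6935 to 9793 CPM in KO saline and 10185 to 17021 CPM in WT saline, with 0 of 15 called lower and 1, Ly6a, called higher. By the length of the longest annotated transcript, the longest quartile of genes (4659 bases and over) had 16 higher and 139 lower genes at a median log2 fold change of -0.16. The shortest quartile (up to 1984 bases) had a median of 0.28, with 106 higher and 22 lower. The same medians were 0.08 and -0.00 for KO AngII against WT AngII.

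The called counts of these lists changed with the libraries. With WT saline replicate 2 left out 14 collagens were called, and with WT saline replicates 1, 3 and 4 left out in turn 0, 1 and 1. Without KO saline replicates 1 to 4 in turn 1, 4, 1 and 3 were called. With WT saline replicate 2 left out 11 elastic fibre genes were called, against 0 or 1 for any other saline library, and matricellular ones 9 and 1 to 3. Eln, Fbn1, Vcan, Col15a1, Npnt and Hspg2 each lost the call without WT saline replicates 1, 3 or 4. They also lost it without single KO saline libraries, which were replicates 1 to 4 for Eln, 1 to 3 for Fbn1 and Vcan, 1, 3 and 4 for Col15a1, 3 and 4 for Npnt and 1, 2 and 4 for Hspg2. Acan lost its call without KO saline replicate 2 (adjusted p = 0.0507), Col4a5 without WT saline replicate 1, and Lamc1 and Lama4 kept theirs in 2 of the 16 fits, the ones that left out WT saline replicate 2 or KO AngII replicate 4. Eln reached an adjusted p of 0.0848, Fbn1 of 0.0777 and Col4a5 of 0.0537 in the least favourable fit, and in all of these fits the log2 fold changes stayed below 0, between -2.10 and -1.20. Itgb3 and Lamc3 kept their calls in all 16. With the adipocyte marker level as a covariate, 6 collagens, 2 elastic fibre genes and 3 matricellular genes were called.

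**Figure D4:**
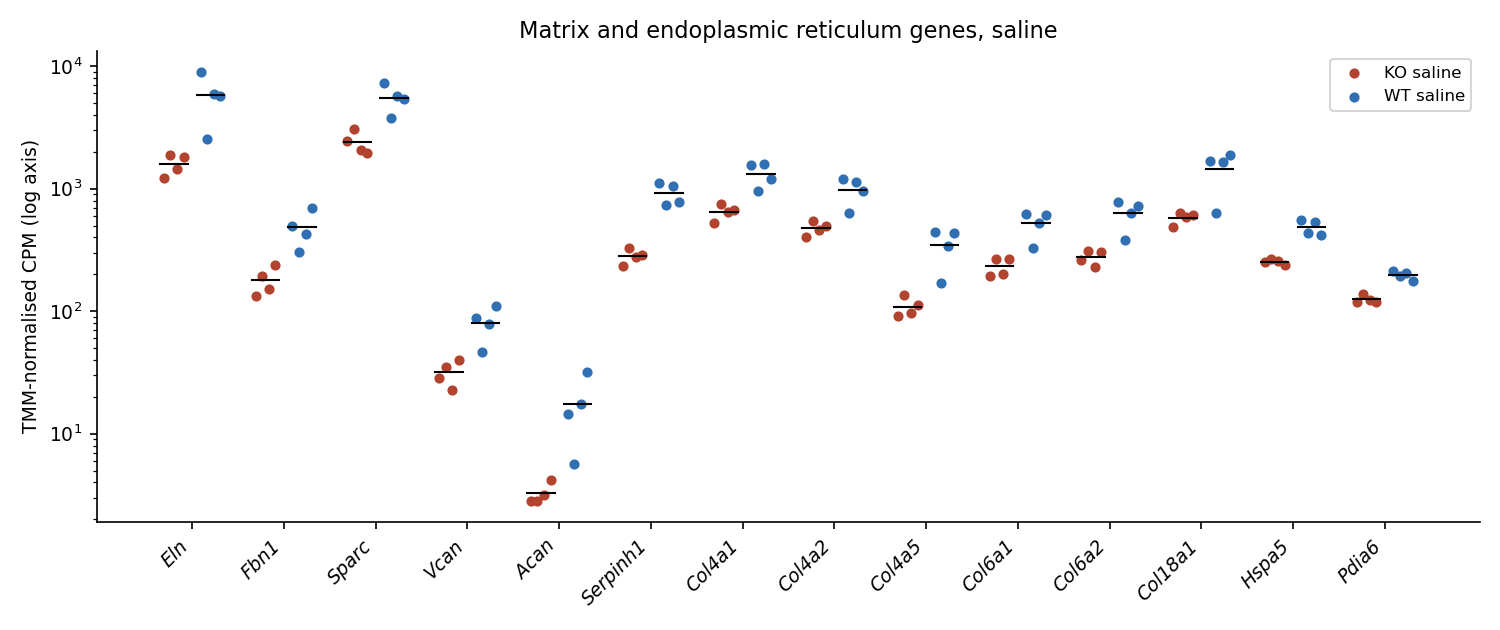
TMM-normalised CPM on a log axis for matrix genes and endoplasmic reticulum chaperones, with 1 point per library, KO saline left of WT saline in each pair, and a line at the mean of 4 libraries. In all 14 genes, each of them called, every KO saline point lies below every WT saline point, and for most matrix genes 1 WT saline point, replicate 2, lies near the KO saline points. Such a lack of overlap was found in 417 of the 481 called genes.

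Some of the genes that fold and modify secreted proteins were lower as well. Serpinh1, the collagen chaperone HSP47, was at 233, 327, 276 and 290.0 CPM in KO saline, against 1118, 734, 1049 and 773 CPM in WT saline (log2 fold change -1.71, SE 0.24, adjusted p = 0.00135), and was called in all 16 fits that left out 1 library. P3h1 and P4ha1, prolyl hydroxylases of collagen, and Colgalt1, a collagen galactosyltransferase, fell by 0.92, 0.91 and 0.85 on the log2 scale. These 4 were picked with their values known, and P3h1, P4ha1 and Colgalt1 kept the call in 4, 5 and 10 of the 16 fits. Each of the 3 lost it without WT saline replicates 1, 3 or 4 or KO saline replicates 1, 2 or 3. P3h1 and P4ha1 also lost it without KO saline replicate 4, WT AngII replicates 1 or 4 or KO AngII replicate 2, P4ha1 without WT AngII replicate 2, and P3h1 without KO AngII replicates 1 or 3. Of 22 genes of the unfolded protein response 6 were lower and none higher, at a median log2 fold change of -0.38, with 18 below 0. The share called lower over all genes tested was 1.78%.

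Hspa5, the chaperone BiP of the unfolded protein response, was at 254, 264, 259 and 238 CPM in KO saline, against 553, 433, 538 and 421 CPM in WT saline (log2 fold change -0.94, SE 0.18, adjusted p = 0.0151). Creld2, an isomerase that the response induces, was at 16.2, 19.7, 18.1 and 18.9 CPM in KO saline, against 38.7, 25.6, 38.7 and 30.01 CPM in WT saline (log2 fold change -0.87, SE 0.17, adjusted p = 0.0191). Neither gene's groups overlapped. Hyou1, Dnajc3 and Pdia6, which are further chaperones and an isomerase, and Atf6, the sensor, had log2 fold changes of -0.64, -0.69, -0.66 and -0.54. The stress-induced transcription factors Ddit3 and Atf4 were not called, with log2 fold changes of -0.08 and -0.20. Hspa5 lost its call without WT saline replicates 1 or 3, at adjusted p up to 0.0608, and Creld2 without these or KO saline replicate 3, and the list's count was 10 without WT saline replicate 2, 0 without WT saline replicates 1 or 3, and 2 or 3 without any other saline library.

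Promoter windows of some of these genes share a letter pattern. The endoplasmic reticulum stress element (ERSE), CCAAT, any 9 bases and CCACG, searched on both strands, is known to be bound by ATF6 with NF-Y. It was found in the window, from 250 bases before to 50 after the start of the RefSeq gene, of all 4 called genes that had one, Hspa5, Creld2, Dnajc3 and Pdia6, and of 3 of 15 genes of the list that were not called. Of all 32851 windows 39 (0.119%) hold it. That share counts windows and not genes. The list was chosen as genes of the response that ATF6 senses, so the comparison is not a test. The 150 bases before the start are shown in the direction of the gene (GRCm38.p6) with the fixed letters of the element in capitals, on the opposite strand for Creld2. A match is a description and not a tested site.
Hspa5 (chromosome 2): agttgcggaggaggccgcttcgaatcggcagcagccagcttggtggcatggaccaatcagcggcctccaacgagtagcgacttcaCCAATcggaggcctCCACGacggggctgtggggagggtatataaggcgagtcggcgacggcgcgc
Creld2 (chromosome 15): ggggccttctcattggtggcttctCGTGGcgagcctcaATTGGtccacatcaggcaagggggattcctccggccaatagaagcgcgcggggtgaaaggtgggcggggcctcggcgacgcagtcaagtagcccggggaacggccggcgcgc
Dnajc3 (chromosome 14): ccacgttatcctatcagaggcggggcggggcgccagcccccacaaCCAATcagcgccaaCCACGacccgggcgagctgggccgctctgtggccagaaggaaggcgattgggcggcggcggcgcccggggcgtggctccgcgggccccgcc
Pdia6 (chromosome 12): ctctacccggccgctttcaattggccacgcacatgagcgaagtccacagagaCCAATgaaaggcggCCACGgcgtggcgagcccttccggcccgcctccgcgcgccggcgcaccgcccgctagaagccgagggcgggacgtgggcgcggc

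Transcripts of the mitochondrial genome took a larger share of reads in every KO saline library than in any WT saline library. The respiratory chain is built of subunits from both genomes, with 13 proteins encoded in the mitochondrion. All 13 had positive log2 fold changes (median 1.64) and 6 were called, all higher, against 1.23% called higher over all genes tested. mt-Nd6, a complex I subunit, averaged 8290.2 ± 2497 CPM in KO saline and 2603 ± 815 CPM in WT saline (SD, n = 4 each; log2 fold change 1.67, SE 0.35, adjusted p = 0.0232). mt-Nd3, another, was at 1785, 1145, 685 and 357 CPM in KO saline, against 177, 230, 263 and 66.8 CPM in WT saline (log2 fold change 2.43, SE 0.56, adjusted p = 0.0325). Both groups were spread widely and did not overlap. None of 36 nuclear subunits of oxidative phosphorylation was called, though all 36 had positive log2 fold changes (median 0.79). Their sums were 29360, 11137, 13112 and 10588 CPM in KO saline and 5219, 19612, 9599 and 4484 CPM in WT saline, highest in the libraries with the most brown adipocyte markers. The mitochondrial count was 12 without WT saline replicate 2, 2 without KO saline replicate 4, 1 without KO saline replicate 3 and 0 without any other saline library. With the adipocyte marker level as a covariate it was 2.

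Of 19 circadian clock genes 6 were higher and 4 were lower in KO saline, at a median log2 fold change of 0.71 over all 19. The shares over all genes tested were 1.23% higher and 1.78% lower. The clock is a loop in which the factors BMAL1 (Arntl) and CLOCK or NPAS2 switch on E-box genes, among them their own repressors. The labels give no time of day at which tissue was taken, and a difference in time between the groups cannot be told apart from genotype. Ciart, a repressor of CLOCK and BMAL1, was at 5.94, 2.54, 3.37 and 3.46 CPM in KO saline, against 0.61, 0.326, 0.295 and 0.768 CPM in WT saline (log2 fold change 2.91, SE 0.44, adjusted p = 0.0028). Bhlhe41 (DEC2), another repressor, was at 41.7, 41.3, 25.9 and 30.03 CPM in KO saline, against 8.81, 8.55, 9.02 and 17.0 CPM in WT saline (log2 fold change 1.68, SE 0.29, adjusted p = 0.0069). Both were called in all 16 fits that left out 1 library.

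The other called clock genes were taken after their values were seen. Dbp, an output factor, was at 75.8, 93.9, 65.8 and 80.3 CPM in KO saline, against 11.3, 11.7, 7.67 and 49.9 CPM in WT saline (log2 fold change 1.97, SE 0.48, adjusted p = 0.0414). Tef, of the same family, averaged 184 ± 6.93 CPM in KO saline and 91.4 ± 38.1 CPM in WT saline, and Nr1d2, the repressor REV-ERB beta, 120 ± 4.33 and 63.5 ± 18.5 CPM. Bhlhe40 completes the 6 that were higher, with a log2 fold change of 1.42. In Dbp, Tef and Nr1d2 the WT saline library nearest to KO saline was replicate 4.

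On the opposite arm, Arntl was at 5.75, 5.53, 7.66 and 12.8 CPM in KO saline, against 30.2, 19.3, 26.1 and 22.8 CPM in WT saline (log2 fold change -1.63, SE 0.32, adjusted p = 0.0169). Npas2 was at 3.68, 6.99, 6.54 and 13.4 CPM in KO saline, against 47.2, 16.3, 35.0 and 34.9 CPM in WT saline (log2 fold change -2.12, SE 0.43, adjusted p = 0.02). Nfil3, the repressor that opposes DBP, was at 7.17, 5.22, 7.59 and 7.66 CPM in KO saline, against 38.7, 38.1, 55.6 and 14.9 CPM in WT saline (log2 fold change -2.41, SE 0.53, adjusted p = 0.0277). Clock fell by 0.58. Of the 9 list members that were not called, Per3 and Nr1d1 reached log2 values of 1.07 and 0.92 for KO saline over WT saline (adjusted p = 0.0622 and 0.103) and both passed without WT saline replicate 4. With WT saline replicates 1 to 4 left out in turn, 2, 13, 3 and 9 clock genes were called, and with KO saline replicates 1 to 4 left out in turn, 3, 3, 4 and 5. Nfil3 lost its call in 6 of the 16 fits, without WT saline replicates 1 or 3 or any one KO saline library.

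An E-box (CACGTG, the same letters on both strands) lay in the promoter window of 3 of the 5 higher clock genes that had one, Ciart, Bhlhe41 and Tef, of 0 of the 4 lower ones and of 2 of 7 that were not called, against 7.15% of all 32851 windows. Here too genes of a list chosen for the clock were set against windows, which is not a test. The 150 bases before the start of Ciart hold the E-box 3 times, shown in capitals in the direction of the gene (GRCm38.p6, minus strand).
Ciart (chromosome 3): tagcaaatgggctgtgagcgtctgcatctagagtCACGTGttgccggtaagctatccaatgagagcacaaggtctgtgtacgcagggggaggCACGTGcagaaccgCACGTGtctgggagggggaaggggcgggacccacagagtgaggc

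**Figure D5:**
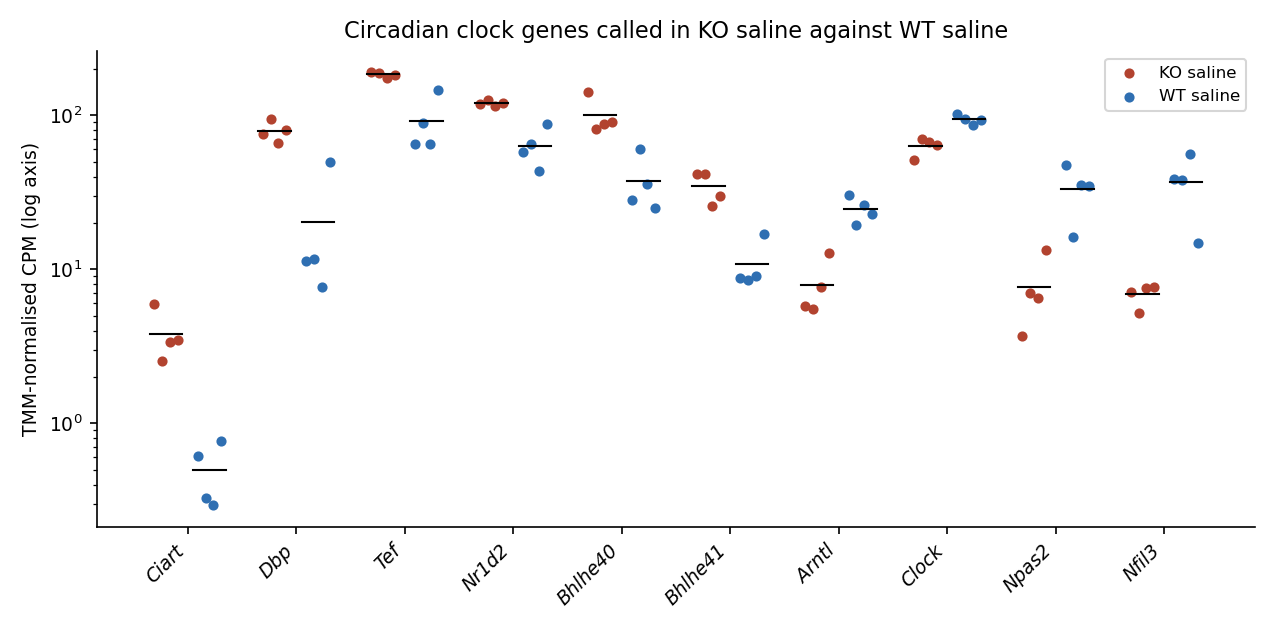
TMM-normalised CPM on a log axis of the 10 called circadian clock genes, 1 point per library, KO saline left of WT saline, with a line at the mean of 4 libraries. Ciart, Dbp, Tef, Nr1d2, Bhlhe40 and Bhlhe41 lie higher and Arntl, Clock, Npas2 and Nfil3 lower in all 4 KO saline libraries than in any WT saline library. Such a lack of overlap was found in 417 of the 481 called genes.

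Over all genes tested 3.01% were called, a share at which lists as short as those of the pathways VAMP8 serves hold few calls. None of 43 SNAREs and fusion factors was called (median log2 fold change 0.09), and the smallest adjusted p was 0.0648 for Stx3, a syntaxin of apical and granule membranes. Their sums were 1751 to 1962 CPM in KO saline and 1653 to 1714 CPM in WT saline, without overlap. Stx17, Snap29 and Stx7, known partners of VAMP8, had log2 fold changes of -0.02, 0.12 and 0.08, and Vamp3 and Vamp2, related R-SNAREs, 0.31 and 0.14. None of 32 autophagy genes was called (median -0.00), and their smallest adjusted p was 0.0815 for Atg9a, a lipid scramblase of early autophagosomes. Of 37 lysosomal genes 2 were lower, and 28 had negative log2 fold changes (median -0.13). Npc1, the cholesterol exporter, was at 15.5, 27.0, 21.2 and 19.4 CPM in KO saline, against 36.3, 38.0, 31.3 and 35.9 CPM in WT saline (log2 fold change -0.77, SE 0.14, adjusted p = 0.0131), apart in all libraries and called in all 16 fits that left out 1 library. Ctsc, the protease that activates granule enzymes, averaged 41.7 ± 3.22 CPM in KO saline and 69.7 ± 8.86 CPM in WT saline (adjusted p = 0.0471), and was called in 5 of those 16. It kept the call only without WT saline replicate 2 or without WT AngII replicates 2, 3 or 4 or KO AngII replicate 4.

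Among the cell type markers, 2 of 18 for endothelium were called, against 3.01% of all genes tested. No other marker list had more than 1 call, and the lists differ in size. All 18 endothelial markers had positive log2 fold changes (median 0.58). Sox17, an endothelial transcription factor of arteries, was at 31.8, 43.3, 30.1 and 50.1 CPM in KO saline, against 18.4, 15.1, 15.6 and 19.2 CPM in WT saline (log2 fold change 1.18, SE 0.24, adjusted p = 0.0191). Sox18, its relative, was at 67.4, 91.9, 56.2 and 87.6 CPM in KO saline, against 33.4, 39.2, 33.1 and 18.7 CPM in WT saline (log2 fold change 1.29, SE 0.32, adjusted p = 0.0424). Icam2, an adhesion molecule of endothelium from the leukocyte adhesion list, averaged 50.7 ± 5.71 CPM in KO saline and 24.8 ± 3.17 CPM in WT saline (adjusted p = 0.0355). These groups did not overlap. WT saline replicates 1 and 3 and KO saline replicates 2 and 4 each decided all 3 calls, which held in 12, 5 and 8 of the 16 fits for Sox17, Sox18 and Icam2. Sox18 and Icam2 also lost the call without WT saline replicate 4, KO saline replicates 1 or 3 or WT AngII replicate 1, and Sox18 without WT AngII replicates 3 or 4 or KO AngII replicate 1. Pecam1 and Cdh5, the defining junction proteins, had adjusted p of 0.404 and 0.445. The endothelial count was 7 without WT saline replicate 2, 1 without WT saline replicate 4, KO saline replicate 1 or KO saline replicate 3, and 0 without any other saline library.

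The remaining lists gave single calls or none. Rgs5, a brake on Gq signalling of pericytes and smooth muscle, was at 578, 500.1, 356 and 340.2 CPM in KO saline, against 1739, 662, 1588 and 1086 CPM in WT saline (log2 fold change -1.52, SE 0.36, adjusted p = 0.0361). Slc2a1, the glucose transporter GLUT1, was lower (log2 fold change -0.79, adjusted p = 0.041) and Ccnd1, cyclin D1, higher (0.99, adjusted p = 0.0466). Mc2r, the ACTH receptor known from adrenal cortex and fat, averaged 2.08 ± 0.763 CPM in KO saline and 0.443 ± 0.363 CPM in WT saline (adjusted p = 0.0393). Rgs5, Slc2a1, Ccnd1 and Mc2r each lost the call in 7 to 11 of the 16 fits that left out 1 library, WT saline replicates 1 and 4 among them in each case. None of 23 chemokines and cytokines, 26 matrix proteases and inhibitors, 21 TGF-beta pathway genes, 24 immediate early genes, 18 heat shock proteins or 20 fatty acid oxidation genes was called. Of the chemokines and cytokines 20 had positive log2 fold changes (median 0.90), and their sums were 622, 646, 557 and 660.0 CPM in KO saline, against 425, 501, 464 and 467 CPM in WT saline. These sums did not overlap, and 3 members were called without WT saline replicate 2 and 8 with limma voom.

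Under AngII infusion the knockout differed from wild type at 324 genes (2.03%), 159 higher (0.995%) and 165 lower in KO AngII. Genes called under both infusions numbered 133, which was 27.7% of the saline list and 41.0% of the AngII list, and all 133 had the same direction, 67 higher and 66 lower. Of the 481 genes called under saline 426 (88.6%) had the same sign under AngII, against 60.4% of all genes tested, and their median absolute log2 fold change was 1.28 under saline and 0.62 under AngII. These pairs of groups share no library, but come from the same fit with a common estimate of the spread. Eln averaged 3269 ± 1089.9 CPM in KO AngII and 17389.6 ± 6200.4 CPM in WT AngII (log2 fold change -2.41, adjusted p = 0.00614). Of 21 collagens 10 were lower there too (median -0.99), against 1.03% of all genes tested. The clock list again had 10 called members, 8 higher and 2 lower in KO AngII (median 0.89). Gbp2b, Ifi202b, Ucp2, Gas5, Igsf9, Ero1b and Rnps1 were called in the same direction under AngII, at adjusted p of 4.56e-06, 1.65e-06, 0.00224, 1.35e-07, 0.000911, 0.00016 and 1.28e-06.

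Some differences called under saline were not called under AngII. The mitochondrially encoded proteins had a median log2 fold change of 0.48 and 0 called members, and Trim12a averaged 1.67 ± 3.30 CPM in KO AngII and 15.98 ± 3.55 CPM in WT AngII (adjusted p = 0.123). Trim12a was still lower there, at a log2 fold change of -3.25 and without overlap between the groups. Tested directly, the difference between the infusions (the interaction) was called for 3 genes (0.0188%), all of them copies: Rps3a3, Rps3a2 and Tpm3-rs7, the last a copy of the tropomyosin gene Tpm3, with interaction log2 values of -6.32, -5.16 and -2.75. Rps3a3 averaged 2.01 ± 0.135 CPM in KO AngII and 2.20 ± 0.872 CPM in WT AngII. Hist1h2al, read in KO saline only, could not be judged by this test, since with 0 reads under AngII its interaction of -9.83 had an SE of 11463. At an unadjusted p under 0.05 the interaction counted 1793 genes.

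Calls among the neighbours of Vamp8 were set against the share over all genes tested, 3.01% under saline. Of the 20 tested genes nearest to it in gene order 0 were called, of the nearest 100 there were 2, and of the nearest 200 there were 4 (2%). Under AngII, where 2.03% of all genes were called, the same windows held 2, 4 and 5, among them Vamp5, the next R-SNARE gene on one side. Vamp5 was at 8.27, 10.7, 10.7 and 9.72 CPM in KO saline, against 13.2, 10.7, 15.8 and 11.9 CPM in WT saline (log2 fold change -0.39, SE 0.18, adjusted p = 0.212), with KO saline replicates 2 and 3 just under the lowest WT saline library. It averaged 7.39 ± 0.943 CPM in KO AngII and 15.3 ± 3.05 CPM in WT AngII (adjusted p = 0.00676). By chromosome, the called share was highest for the mitochondrial genome with 8 of 31 genes (25.8%), followed by the Y chromosome with 1 of 7, chromosome 1 with 47 of 957 (4.91%) and chromosome 7 with 56 of 1205 (4.65%).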

How the data were processed

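PolyA RNA of mouse suprarenal aorta was sequenced from paired-end libraries, 4 per group. The authors deposited raw read counts per gene. The submitters' processing notes name HISAT2 2.0.5, then featureCounts 1.5.0-p3, DESeq2 1.20.0 and the genome build GRCm39. They state neither annotation, strandedness nor the handling of multi-mapping reads, so overlapping and antisense genes cannot be told apart and near-identical genes are uncertain.

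From these counts all 16 libraries were fitted in edgeR 4.0.16 (R 4.3.3) with 1 mean per group, TMM scaling and filterByExpr, which removed 13711 genes. The quasi-likelihood F test had 12 residual degrees of freedom, p-values were Benjamini-Hochberg adjusted over all 15984 genes tested, and a gene was called at an adjusted p under 0.05. The standard error is the absolute log2 fold change divided by the square root of F. Levels are TMM-normalised CPM, given per library or as mean ± SD. The fit was tested on simulated data. Replicates are the labels' biological replicates. Intervals and the floor of 3 reads over a group cover counting error only.

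The members and lists were chosen with earlier results of these data known. The genes named were Vamp8, the 12 largest rises and 12 largest falls among called protein-coding genes with at least 1 CPM in the higher group and no overlap, and up to 2 called members with the smallest p from each list; others are said to be chosen after their values were seen, and copy families are named with their limit. One gene that the rule names is not reported here. Alternatives were DESeq2 1.42.0, limma 3.58.1 (voom with quality weights), RLE scaling, other filters, only the 8 saline libraries, a replicate block, mitochondrially encoded genes left out, an adipocyte covariate, a fold threshold of 1.2, and each library left out. Promoter and copy sequences came from RefSeq GRCm38.p6 and GRCm38 transcripts, whose build differs from that of the counts, so no coordinates are given. The GRCm38 annotation held 28378 of the 29695 gene identifiers.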

Additional observations from a re-analysis of the deposited data

Results flagged for a closer look

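In groups of 4 libraries, a library was singled out where its gap to the nearest of the others exceeded Dixon's critical share of the group's range. This held in 28 of 212 groups looked at, and chance alone singles out about 1 in 20 for independent, normally distributed values. The groups here are not independent, and many genes were chosen by their values. A group at 0 in all but its highest library, as for Trim12a and Trim30d, is always singled out. The number of groups singled out can therefore not be judged against that rate.

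WT saline replicate 2 was the library most often set apart. It was lowest for Tceal6 (3.85 CPM, against 14.5 to 15.6 in the rest of its group), Itgb3 (72.8, against 191 to 209.5), Npnt (472, against 1284 to 1403), Wdfy1 (16.9, against 24.6 to 24.9), Cercam (28.1, against 69.7 to 74.3), Plac9 (207, against 321 to 334) and Rps3a1 (524, against 706 to 742). It was highest for H2-T10 (3.52 CPM, against 1.69 to 1.83). Its summed smooth muscle markers were lowest, at 13703 CPM against 34753.5 to 36854.5.

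The library labelled KO saline replicate 1 was highest for Tceal6 (3.49 CPM, against 1.12 to 1.398), Tmem254 (40.0, against 17.4 to 19.7), Fcgr3 (4.52, against 3.86 to 3.92) and summed liver markers (192, against 1.38 to 16.3). It was lowest for Itgb3 (34.1 CPM, against 47.3 to 47.6) and Lama4 (88.8, against 127 to 132). KO saline replicate 2 was highest for Tpm3-rs7 (106 CPM, against 43.4 to 51.9). KO saline replicate 3 was highest for summed skeletal muscle markers (923 CPM, against 42.7 to 63.9), summed Schwann cell markers (922, against 282 to 371) and Trim30d (0.211, against 0 in the others). KO saline replicate 4 was highest for Rpl34 (72.1 CPM, against 2.07 to 4.65) and Trim12a (0.400, against 0 in the others). It was lowest for B2m (596 CPM, against 938 to 986), Aqp11 (12.2, against 20.9 to 22.5) and Olfr482 (1.93, against 4.08 to 4.23).

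WT saline replicate 4 was highest for Bhlhe41 (17.0 CPM, against 8.55 to 9.02) and summed liver markers (296, against 3.25 to 15.7), and lowest for summed mast cell markers (49.4, against 54.9 to 55.3). WT saline replicate 1 was highest for summed Schwann cell markers (633 CPM, against 269 to 283).

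The genotype difference itself differed between the infusions, by the interaction term of the edgeR fit, for 3 genes. The log2 interaction was -6.32 for Rps3a3 (adjusted p = 2.28e-06). It was -5.16 for Rps3a2 (adjusted p = 2.86e-05) and for the tropomyosin copy Tpm3-rs7 it was -2.75 (adjusted p = 0.0152). All 3 have near-identical relatives.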

How the results depend on the processing

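The 481 genes called under saline became 515 with RLE scaling, 355 with no filter, 486 with a filter of 1 CPM, 1362 with DESeq2, 3197 with limma voom, 203 with only the 8 saline libraries, 599 without the mitochondrially encoded genes, 224 with the adipocyte covariate, 176 with a fold threshold of 1.2 and 416 with KO AngII replicate 4 and the library labelled KO saline replicate 1 both left out. Leaving out 1 library gave 105 to 1744. The 324 genes called under AngII became 1230 with DESeq2, 580 with limma voom, 689 with the covariate, 140 with the fold threshold and 100 to 845 with 1 library left out. The 3 interaction calls became 97 with DESeq2, 173 with limma voom and 2 to 12 with 1 library left out. The Vamp8 log2 fold change was called with limma voom (-0.83, adjusted p = 0.00121) and with these 2 libraries left out (-0.91), and ranged over -0.95 to -0.49 (adjusted p = 0.0315 to 0.293) with 1 library left out. The cause of these shifts was not tested. None of these values reversed in direction. Of 78 called genes followed through each setting, 78 kept their call with RLE scaling, 66 with no filter, 54 with the covariate and 38 without WT saline replicate 1, and 86 of all called genes were called in all 27 fits.

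The labels number replicates 1 to 4 in each group, but same-numbered KO saline and WT saline libraries deviated together with correlations of -0.42, -0.15, -0.14 and 0.23, and the labels do not say whether a number marks a shared litter or day, so the libraries were not treated as paired. With a replicate block 394 genes were called under saline, 166 under AngII and 3 by the interaction, and the Vamp8 log2 fold change was -0.66 (adjusted p = 0.118). With 4 libraries a group and a biological coefficient of variation of 35.3%, small changes of low genes were not detectable.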

Other observations

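The genes described here were chosen after their values were seen, from those called in all 16 fits that left out 1 library. Cd47, the surface signal that restrains phagocytes, was at 150, 153, 138 and 152 CPM in KO saline, against 84.8, 74.4, 80.0 and 89.8 CPM in WT saline (log2 fold change 0.85, adjusted p = 0.00941 in edgeR's test). Irf1, a transcription factor of the interferon response, was at 41.3, 44.4, 39.9 and 49.9 CPM in KO saline, against 24.1, 28.9, 26.5 and 24.8 CPM in WT saline (log2 fold change 0.75, adjusted p = 0.00824). Wdfy1, an endosomal protein that binds phosphoinositides, was at 44.2, 52.2, 51.0 and 53.4 CPM in KO saline, against 24.7, 16.9, 24.9 and 24.6 CPM in WT saline (log2 fold change 1.14, adjusted p = 0.00395). All KO saline libraries lay above all WT saline libraries in these 3 genes.

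Lower in every KO saline library were Plac9, Tmem254, Cercam and Myh10. Plac9, a small secreted protein, was at 132, 84.3, 80.6 and 131 CPM in KO saline, against 324, 207, 334 and 321 CPM in WT saline (log2 fold change -1.47, adjusted p = 0.00562). Tmem254 was at 40.0, 19.7, 17.4 and 18.4 CPM in KO saline, against 83.9, 57.0, 77.0 and 76.1 CPM in WT saline (log2 fold change -1.62, adjusted p = 0.00139). Cercam was at 18.3, 20.4, 17.99 and 17.4 CPM in KO saline, against 72.3, 28.1, 74.3 and 69.7 CPM in WT saline (log2 fold change -1.72, adjusted p = 0.00379). Myh10, a nonmuscle myosin heavy chain, was at 147, 178, 159 and 156 CPM in KO saline, against 641, 255, 579 and 879.5 CPM in WT saline (log2 fold change -1.88, adjusted p = 0.011), while its log2 fold change was -0.23 under AngII.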
